A study of Mus musculus with 28 samples.

Results

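The small RNA of sperm from alcohol-exposed mice that lack the transcription factor Nrf2 was set against that of unexposed mice of the same genotype. The members were chosen by their labels and not by their values: 4 libraries labelled Nrf2-/- and ethanol, and 4 labelled Nrf2-/- and control with no alcohol exposure, 8 of the 28 libraries of the series. Both groups carry the Nrf2-/- genotype, so the wild type enters none of the comparisons, and the sources used here do not give the dose, route or length of exposure, the strain or the age of the animals. Total RNA of sperm was taken up in Trizol, and libraries were built with a Qiaseq kit for small RNA. The labels number the samples within each group but do not say whether each came from a separate animal, so p-values measure only the spread between these samples, which may be technical. The values are counts of reads on annotated features of 8 classes.

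Nrf2, encoded by Nfe2l2, is a transcription factor that is held in the cytoplasm by Keap1 and degraded, and that enters the nucleus under oxidative or electrophilic stress to switch on glutathione, thioredoxin and detoxification genes. Alcohol is oxidised to acetaldehyde and then to acetate, and this metabolism raises oxidative stress in the liver and in other tissues. Sperm carry microRNAs (miRNAs), fragments of transfer RNA and piRNAs. Part of this load is left from spermatogenesis in the testis and part is taken up from vesicles shed by the epithelium of the epididymis, where sperm mature.

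Total counts ran from 4091411 to 5218705 in the ethanol libraries and from 3922109 to 6448390 in the control libraries. The same reads may have been counted at several matching copies: for tRNA-Val-GTG, the 1 name checked, 5 of the 16 listed copies held counts within 1% of the highest. The highest copy was therefore kept for each structural RNA, which left 3216250 to 4075671 counts in the ethanol libraries and 2875003 to 4782698 in the control libraries. As a check on the genotype, Nfe2l2 exons held 4, 1, 9 and 10 reads in ethanol libraries 1 to 4, against 20, 17, 0 and 5 reads in control libraries 1 to 4. These counts are near the limit of detection, and which part of the gene was deleted is not stated, so they check little.

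The control libraries fell into 2 pairs, and every result below is given with that in view. Exons of epididymal epithelium genes, such as Crisp1 and Spink8, of which 42 of 48 listed were in the table, summed to 545, 493, 299 and 860 CPM in ethanol libraries 1 to 4, against 2802, 2398, 111 and 99.8 CPM in control libraries 1 to 4. CPM are counts brought to one nominal library size; sums over a list use the plain total of all classes, or of miRNAs for miRNA lists, without further scaling. Controls 1 and 2 thus stood above every ethanol library and controls 3 and 4 below every one. Exons of 35 sperm and spermatid genes ran the other way, with 395, 572, 497 and 622 CPM in ethanol libraries, against 350, 417, 1511 and 1908 CPM in controls. Smcp, a protein of the sperm mitochondrial capsule, was at 236, 304, 245 and 240.1 CPM in ethanol libraries, against 73.4, 132, 658 and 1174 CPM in controls. All 35 sperm markers had reads in at least 1 library, and 32 to 34 of them had reads in each ethanol library, against 34 or 35 in each control. As a description over features of libraries that differ in depth, the correlation of log2 counts was 0.95 between controls 1 and 2 and 0.92 between controls 3 and 4, but 0.59 to 0.65 across the pairs. Among ethanol libraries it was 0.87 to 0.94. In bulk samples such as these, fewer cells of a type and less RNA per cell cannot be told apart.

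**Figure D1:**
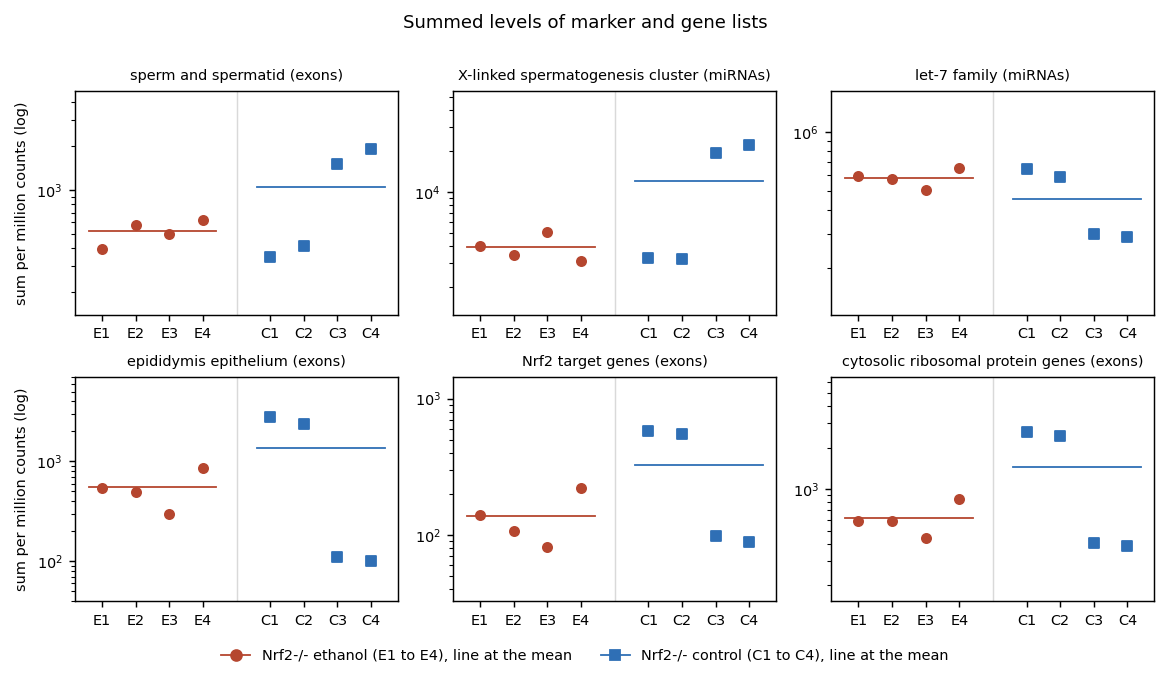
Summed counts of 6 lists in each of the 8 libraries, in CPM of all classes for exons and CPM of miRNA counts for miRNAs, on log axes, with a line at each group mean. Controls 1 and 2 lie apart from controls 3 and 4 in each panel, and ethanol libraries lie between the pairs in the epididymis panel with 299 to 860 CPM in ethanol libraries against 99.8 to 2802 in controls.

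How the reads divided among the classes was compared first. miRNAs took 63.9%, 62.9%, 53.6% and 52.4% of the counts in ethanol libraries, against 52.5%, 57.4%, 29.4% and 31.0% in controls. The mean was 58.2% ± 6.04 with ethanol and 42.6% ± 14.5 in controls (SD, n = 4 each; exact two-sided permutation test, p = 0.143). The groups overlapped, since the share in control 2 was above that in ethanol libraries 3 and 4. Within each of the 4 replicate numbers the ethanol library had the higher share (exact sign flips over numbers, p = 0.125, the smallest possible). The labels give no ground for pairing libraries by number. piRNA clusters, the long precursor loci of the piRNAs that silence transposons in male germ cells, took 14.3%, 12.8%, 21.5% and 13.1% of the counts in ethanol libraries, against 13.8%, 11.5%, 33.7% and 35.0% in controls (exact permutation test, p = 0.371). The 2 high values were the same controls that were rich in spermatid exons.

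Exons took 6.73%, 6.74%, 6.55% and 10.3% in ethanol libraries, against 14.6%, 14.2%, 9.39% and 8.76% in controls, a difference of -4.18 percentage points (exact permutation test, p = 0.0857, adjusted p = 0.343). Sense reads on transposable elements took 2.42%, 2.27%, 2.69% and 2.41% in ethanol libraries, against 2.89%, 2.83%, 3.97% and 3.97% in controls. Every ethanol library was below every control in this class, which gives the smallest p that 4 against 4 libraries allow (exact permutation test, p = 0.0286). Adjusted over the 8 classes it was 0.229, the smallest that 1 class alone could reach. No class passed, but a class that separated alone could not have passed 0.05. Sense reads on retroviral RLTR repeats made up 1914, 1627, 1761 and 1839 CPM in ethanol libraries, against 6253, 6883, 2241 and 1937 CPM in controls. With RLTR reads left out of the class, or miRNAs left out of the total, the groups overlapped. Structural RNA (p = 0.429), antisense transposable elements (p = 0.371), introns (p = 1.0) and miRNA hairpins (p = 1.0) overlapped between the groups in the same exact permutation test. Counting error was small beside these spreads, with 95% Wilson intervals no wider than 0.0546 points to either side.

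**Figure D2:**
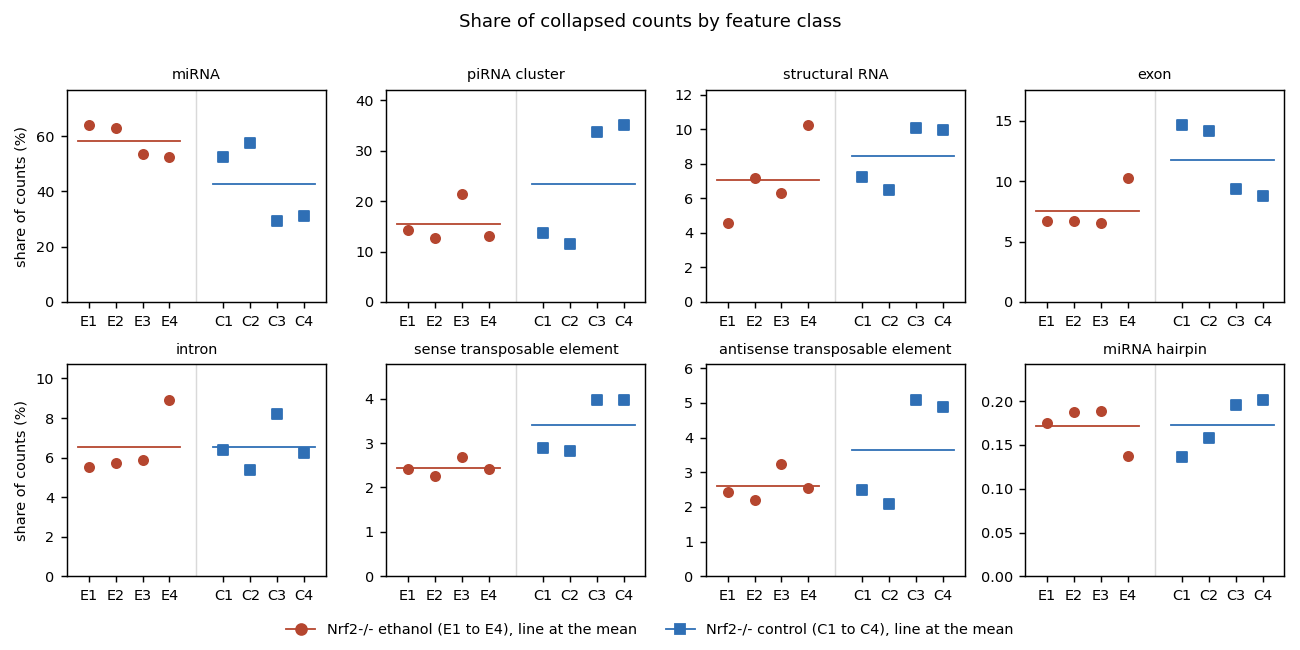
Share of the counts of each library in the 8 feature classes, in percent, for ethanol libraries E1 to E4 and control libraries C1 to C4, with a line at each group mean. The 4 ethanol libraries lie below all 4 controls for sense transposable elements (2.27% to 2.69% against 2.83% to 3.97%), and controls 3 and 4 stand apart for miRNAs and piRNA clusters. With miRNAs left out of the total, the ranges for sense transposable elements overlap.

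Whether any single miRNA differed between ethanol and control sperm was tested with the quasi-likelihood test of edgeR on counts. Of 237 miRNAs tested, 0 passed an adjusted p of 0.05 (0%). At an unadjusted p under 0.05 there were 3 (1.27%), 1 of them higher and 2 lower, where chance alone gives 11.85, and DESeq2 also called 0. CPM of miRNAs are miRNA counts brought to one nominal library size and scaled by TMM, a factor that lines libraries up on the bulk of their miRNAs, so the CPM of 1 library need not add up to the nominal total. The most abundant miRNAs were let-7c-5p with 25.2% of all miRNA counts over the 8 libraries, miR-16-5p with 20.4% and let-7a-5p with 14.6%. These were followed by let-7f-5p (6.96%), miR-191-5p (6.09%), let-7b-5p (3.51%), let-7g-5p (2.76%), miR-143-3p (2.43%), miR-10a-5p (1.96%) and let-7d-5p (1.38%). The sequences of those on which the results turn are shown from RefSeq (GRCm38.p6), 5′ to 3′, with the seed, bases 2 to 8 that pair with target mRNAs, in capitals, and 12 of 13 looked up were matched.
let-7a-5p: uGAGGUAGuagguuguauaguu
let-7b-5p: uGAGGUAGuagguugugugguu
let-7c-5p: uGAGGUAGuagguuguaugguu
let-7f-5p: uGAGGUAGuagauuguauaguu
let-7i-5p: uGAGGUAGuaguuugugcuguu
miR-16-5p: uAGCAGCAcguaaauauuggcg
miR-15b-5p: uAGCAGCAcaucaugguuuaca
miR-34a-5p: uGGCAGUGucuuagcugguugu
miR-449a-5p: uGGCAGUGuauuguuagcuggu
miR-34c-3p: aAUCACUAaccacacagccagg
miR-743a-3p: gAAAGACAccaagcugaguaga
The 5 let-7 miRNAs share 1 seed and differ only in a few bases of the 3′ part, miR-16-5p and miR-15b-5p share another, and so do miR-34a-5p and miR-449a-5p.

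let-7 miRNAs, which restrain growth and mark differentiated cells, stood mostly higher with ethanol, though none passed the test. let-7i-5p, from chr10:122985698-122985719 on the minus strand, was at 3639, 3844, 2722 and 6173 CPM in ethanol libraries, against 2475, 2193, 1746 and 1272 CPM in controls. Every ethanol library was above every control, with a log2 change of 1.09 ± 0.47 (SE; edgeR adjusted p = 0.999), and the ranges overlapped when scaled to the total of all classes. Such a full separation was found for 2 of 237 miRNAs in this direction (0.844%) and for 4 of 237 in the other (1.69%). let-7c-5p was at 263160, 224320, 304830 and 546570 CPM in ethanol libraries, against 232310, 273550, 72452 and 79843 CPM in controls (log2 change 1.02 ± 0.56, SE; edgeR adjusted p = 0.999). Its low values were controls 3 and 4, and ethanol libraries 1 and 2 lay within the range of controls 1 and 2 or just below it. let-7b-5p was at 40342, 27893, 38575 and 92832 CPM in ethanol libraries, against 29511, 34216, 12601 and 10954 CPM in controls.

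Over the let-7 family, 16 of 17 tested members were higher with ethanol and 1 lower, with 0 called and a median log2 change of 0.90, against -0.09 over all miRNAs tested. These members include precursor rows of low count, such as let-7a-1 and let-7g, beside the mature miRNAs. The median is the value of the let-7g row, and mature members ran from 0.33 for let-7d-3p to 1.19 for let-7b-5p. The family as a whole made up 592430, 573800, 505930 and 653120 CPM of miRNA counts in ethanol libraries, against 645830, 587620, 300320 and 287310 in controls. By this summed share controls 1 and 2 reached the ethanol level, and the gap lay between all ethanol libraries and controls 3 and 4. Without controls 1 and 2 the median log2 change of the family was 1.33, and without controls 3 and 4 it was 0.61. miR-16-5p, which restrains cell cycle genes, was at 176920, 187290, 319880 and 216580 CPM in ethanol libraries, against 96539, 141970, 264450 and 397210 CPM in controls. Its means were alike, 225170 and 225040 CPM, with a log2 difference of 0.00 ± 0.50 (SE).

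Germ cell miRNAs were among those with negative changes and the lowest p. miR-34c-3p, from chr9:51103044-51103065 on the minus strand and made from the hairpin of a miRNA abundant in mouse spermatids and sperm, was at 23.1, 51.8, 32.9 and 28.6 CPM in ethanol libraries, against 45.9, 30.7, 229 and 183 CPM in controls (log2 change -1.84 ± 0.75, SE; edgeR adjusted p = 0.999). miR-743a-3p, of a cluster on the X chromosome that is transcribed in the testis, was at 1458, 937, 2244 and 2003 CPM in ethanol libraries, against 772, 1056, 9211 and 13711 CPM in controls. For both, controls 3 and 4 were above every other library. The level of miR-743a-3p in controls 1 and 2 was below that of 3 of the 4 ethanol libraries. miR-465a-5p of the same X-linked cluster had no overlap, with 42.5, 61.4, 48.7 and 56.4 CPM in ethanol libraries, against 97.7, 70.8, 103 and 149.9 CPM in controls (log2 change -1.01 ± 0.47, SE; edgeR adjusted p = 0.999), though it did when scaled to the total of all classes.

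All 16 tested members of the X-linked cluster had a negative log2 change, with a median of -0.69 and 0 called. Their summed level was 4032, 3453, 5051 and 3127 CPM of miRNA counts in ethanol libraries, against 3257, 3198, 19269 and 22250 in controls. Controls 3 and 4 were above every other library, controls 1 and 2 lay below 3 of the 4 ethanol libraries, and the median change was 0.18 once controls 3 and 4 were left out. In the family of miR-34c-5p and miR-449a-5p, abundant in meiotic and later germ cells, 5 of 6 tested members were lower and 1 higher, with a median of -1.58. These 6 include 3p strands, such as miR-34c-3p, whose seed shown above differs from that of miR-449a-5p. Of the 5 lower members, miR-449a-5p was listed at 0 in ethanol libraries 2 and 3 and miR-34b-3p in ethanol library 2, where 1823, 1830 and 387 reads were expected, so their changes rest in part on such zeros. miR-34c-5p was at 1644, 2762, 5215 and 2070.1 CPM in ethanol libraries, against 3558, 3203, 6707 and 7438.5 CPM in controls. miR-34a-5p, which shares the seed of miR-449a-5p but is made in many somatic tissues, was instead low in controls 3 and 4, at 1765, 1988, 1160.2 and 599 CPM in ethanol libraries, against 3388, 1709, 104 and 84.3 CPM in controls.

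Epithelial miRNAs differed between the control pairs, though sums over their list rest in part on untested members and listed zeros. miR-200b-3p, a keeper of epithelial identity, was at 1090.1, 1593, 663 and 543 CPM in ethanol libraries, against 1378, 1384, 56.6 and 13.9 CPM in controls. Of the miR-200 family and miR-205, 2 of 6 tested members were higher and 4 lower, with a median log2 change of -0.07. The summed level of all 16 listed members was 5318, 7289, 30631 and 1619 CPM of miRNA counts in ethanol libraries, against 15102, 10090, 349.5 and 5045 CPM in controls. Most of the sum in ethanol library 3 and control 4 came from members not tested. miR-200a-3p, miR-429-3p and miR-205-5p, like miR-200b-3p, were lower in controls 3 and 4 than in every other library, unlike the miR-141 rows. miR-141-3p was listed at 0 in ethanol libraries 1 and 3 and control 3, where 6421, 5006 and 2081 reads were expected. The family of miR-10a-5p and its relatives, the miR-125 group included, was likewise divided, with 6 members higher and 5 lower of 11 and a median of 0.02. miR-10a-5p was at 19481, 21786, 15027 and 21023 CPM in ethanol libraries, against 25679, 28017, 2187 and 3787 CPM in controls.

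**Figure D3:**
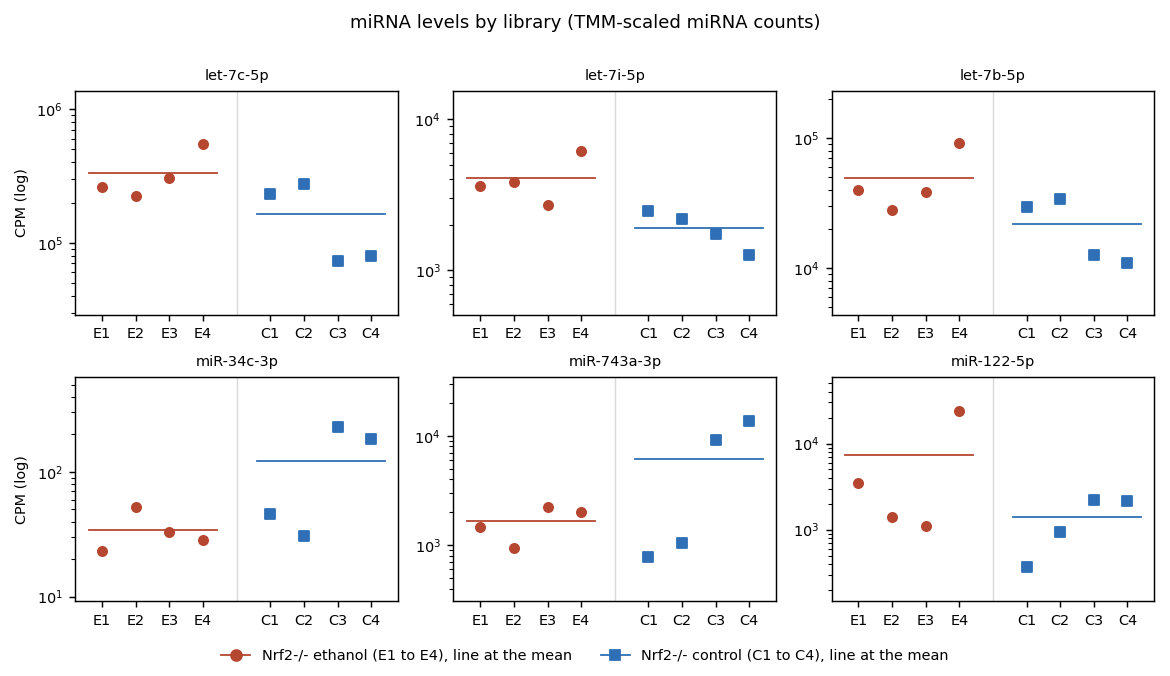
Levels of 6 miRNAs in each library, in CPM of TMM-scaled miRNA counts on log axes, with a line at each group mean. Only let-7i-5p among the 6 shows no overlap (2722 to 6173 CPM with ethanol against 1272 to 2475 CPM in controls), and in the panels of miR-34c-3p and miR-743a-3p controls 3 and 4 are high.

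Zeros stood in single libraries for miRNAs that were abundant elsewhere. miR-191-5p was listed at 0 in control 1, and at 82086 to 145444 counts in ethanol libraries and 121181 to 236072 counts in the other 3 controls. miR-26a-5p was listed at 0 in the same library and at 23520 to 33512 counts in ethanol libraries, and at 8334 to 55245 in the other controls. Over the table, 39 miRNAs had such zeros in 66 entries, 13 of them in ethanol library 4. Leaving those miRNAs out changed no call, with 0 of 201 called.

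miR-122-5p, the main miRNA of hepatocytes, was among the 10 miRNAs with the lowest p. It was at 3491, 1399, 1112 and 23624 CPM in ethanol libraries, against 371, 935, 2208 and 2169 CPM in controls (log2 change 2.38 ± 1.09, SE; edgeR adjusted p = 0.999). Exons of Alb, the albumin gene of hepatocytes, were at 243, 90.4, 89.2 and 322 CPM in ethanol libraries, against 34.5, 66.6, 113 and 176 CPM in controls. Both were highest in ethanol libraries 4 and 1. Over the hepatocyte list, 5 of 5 tested exons were higher, with a median of 0.94, and the summed level was 159, 62.2, 53.9 and 351 CPM in ethanol libraries, against 43.8, 68.4, 98.8 and 123 CPM in controls. Whether liver RNA entered these libraries was not tested.

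The other 7 classes were tested together. Of 9613 features, 0 passed an adjusted p of 0.05 in edgeR (0%), with a lowest adjusted p of 0.774. At an unadjusted p under 0.05 there were 461 (4.80%), 295 higher and 166 lower, where chance alone gives 480.7. DESeq2 called 2 (0.0208%), both lower with ethanol: exons of Camk1d and introns of Cdh22. The median log2 change over all features was -0.26, and it was -0.57 when libraries were scaled to the total of all classes, so directions are relative to the scaling. All ethanol libraries were above all controls for 306 features (3.18%) and below for 198 (2.06%). CPM of these features are TMM-scaled in the same way over the counts outside the miRNA class.

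Camk1d, a kinase activated by calcium and calmodulin, had the lowest p. Its exons were at 17.6, 18.9, 12.3 and 9.60 CPM in ethanol libraries, against 75.0, 69.9, 59.1 and 47.7 CPM in controls. The means were 14.6 ± 4.40 CPM with ethanol and 62.9 ± 12.1 CPM in controls (SD, n = 4 each), and the log2 change was -2.11 ± 0.43 (SE; edgeR adjusted p = 0.774). Introns of Cdh22, a cadherin, were at 12.9, 9.47, 9.23 and 7.32 CPM in ethanol libraries, against 42.9, 31.5, 45.4 and 30.3 CPM in controls (log2 change -1.95 ± 0.41, SE; edgeR adjusted p = 0.774). For both, all ethanol libraries were below all controls, and both control pairs were at a like level. The log2 change of Camk1d was -1.87 without controls 1 and 2 and -2.12 without controls 3 and 4, and that of Cdh22 was -1.95 and -1.73.

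Several small nucleolar RNA genes stood above all controls in every ethanol library. Small nucleolar RNAs (snoRNAs) guide chemical modification of ribosomal and spliceosomal RNA, and most are cut from introns of host genes. Those named Snord carry C and D boxes and guide methylation, and those named Snora guide pseudouridylation. This list was chosen after its values were seen, so it has no test. The sequences of 3 members whose ethanol libraries were all above all controls are shown, 2 abundant ones, Snord104 and Snord87, and Snord64, which had the lowest p of the list. The most abundant member, Snord85, is described by its levels only, and the letters marked below do not stand for the list. They are printed as DNA from GENCODE M21 (GRCm38), 5′ to 3′, with the first TGATGA and the last CTGA in capitals, the letters of the usual C and D boxes. A TGATGA with a later CTGA is in 23.7% of the 1483 snoRNA genes of that annotation, searched on the transcript strand.
Snord104: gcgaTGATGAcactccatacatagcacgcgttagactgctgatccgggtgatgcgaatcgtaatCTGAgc
Snord87: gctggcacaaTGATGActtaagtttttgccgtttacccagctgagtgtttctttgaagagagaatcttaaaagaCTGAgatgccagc
Snord64: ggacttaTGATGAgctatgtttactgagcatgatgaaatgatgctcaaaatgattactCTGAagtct
Snord104 lies at chr11:106500993-106501062 on the plus strand with no other annotated gene on that strand, Snord87 at chr1:9942463-9942549 on the minus strand in an intron of Snhg6, and Snord64 at chr7:59978808-59978874 on the minus strand in an exon of Gm38393. In these 3 the first TGATGA begins at base 5, 11 and 8.

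Snord85 was the most abundant exon feature. It was at 7515, 7129, 6779 and 7666 CPM in ethanol libraries, against 2314, 2629, 3316 and 3182 CPM in controls. The means were 7272 ± 399 CPM with ethanol and 2860.2 ± 470.2 CPM in controls (SD, n = 4 each), 2.54-fold, with no overlap (log2 change 1.35 ± 0.40, SE; edgeR adjusted p = 0.774). Both control pairs were at a like level, in contrast to the epididymal and spermatid genes. Snord104 was at 4087, 3828, 3629 and 4297 CPM in ethanol libraries, against 1696, 1694, 2547 and 1517 CPM in controls. Snord87 was at 1958, 2109, 1634 and 1389 CPM in ethanol libraries, against 708, 779.9, 902 and 909 CPM in controls. Snord64 was at 28.4, 42.2, 32.3 and 18.3 CPM in ethanol libraries, against 11.6, 10.7, 5.50 and 8.98 CPM in controls. No ethanol library was below any control for these 3 genes either, with log2 changes of 1.09, 1.10 and 1.69.

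Of 114 snoRNA genes listed, 92 had enough reads to be tested, and 85 were higher with ethanol and 7 lower. The median log2 change was 0.73, against -0.26 over all features, and 0 were called. All ethanol libraries were above all controls for 18 of the 92, against 46 of 5502 exon features (0.836%), those 18 included. They were below all controls for 0 of the 92, against 191 of 5502 (3.47%). Other abundant ones among the 18 included Snord22, Snord37, Snord55, Snord82, Snord1c, Snord73a and Snord1b. Snord37 was at 588, 659, 577 and 642 CPM in ethanol libraries, against 229, 259, 382 and 129.6 CPM in controls. Snord2, by contrast, was at 4159, 5349, 3985 and 1133 CPM in ethanol libraries, against 2033, 1968, 1237 and 846 CPM in controls, with ethanol library 4 within the control range.

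The median of the snoRNA list was 0.64 without controls 1 and 2, 1.149 without controls 3 and 4, and 0.42 with libraries scaled to the total of all classes, where the median of all features was -0.57. In CPM of all classes, the summed level was 11628, 12220, 10107 and 16798 in ethanol libraries, against 10697, 9205, 8855 and 4910 in controls, so on that scale ethanol library 3 was below control 1. Under that scaling 12 of the 18 separated snoRNA genes overlapped, Snord104, Snord22, Snord55, Snord73a and Snord1b among them, and 6 still had no overlap: Snord85, Snord87, Snord64, Snord37, Snord82 and Snord1c. snoRNAs listed among the structural RNAs were also higher in all ethanol libraries. U3, which is needed to cut the ribosomal RNA precursor, was at 749, 769, 612 and 745 CPM in ethanol libraries, against 333, 362, 428 and 443 CPM in controls. U8 was at 1353, 1111, 1255 and 670.5 CPM in ethanol libraries, against 423, 600.4, 393 and 316 CPM in controls. These 2, U13, U14 and 4.5SRNA were the 5 of 74 structural RNAs with all ethanol libraries above all controls (6.76%), and 0 were below (0%). Scaled to the total of all classes, U8 still had no overlap and U3 did.

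Introns of several genes, some of them hosts of snoRNAs, were above all controls in every ethanol library. Introns of Hspa9, the mitochondrial heat shock protein 70, were at 1071, 1254, 1001 and 823 CPM in ethanol libraries, against 408, 478, 296 and 190.2 CPM in controls (log2 change 1.60 ± 0.45, SE; edgeR adjusted p = 0.774). Introns of Atg16l1, a protein of autophagosome formation, were at 516, 642, 564 and 828 CPM in ethanol libraries, against 227, 271, 267 and 226 CPM in controls (log2 change 1.36 ± 0.40, SE). Neither overlapped under either scaling. Introns of Ubap2 were at 241, 379.8, 202 and 344 CPM in ethanol libraries, against 102, 109.6, 118 and 58.3 CPM in controls, and introns of Rack1, a scaffold protein of the ribosome, at 823, 858, 765 and 859 CPM, against 298, 324, 511 and 278 CPM in controls.

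Nop56 encodes a core protein of the C and D box snoRNA particle and hosts snoRNAs itself. Its introns were at 1317, 1443, 1303 and 1248 CPM in ethanol libraries, against 564, 588, 846 and 616 CPM in controls, with no overlap under either scaling. Introns of Snhg1, a long non-coding host of many snoRNAs, were at 6649, 7499, 6051 and 3822 CPM in ethanol libraries, against 2997, 3078, 2601 and 1497 CPM in controls. Introns of Gas5, the same kind of host, were at 11176, 12954, 11746 and 3128 CPM in ethanol libraries, against 4980.1, 5793, 2450.1 and 2237 CPM in controls, and ethanol library 4 lay within the control range.

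Over all 3016 introns tested, 237 had all ethanol libraries above all controls (7.86%) and 7 had all below (0.232%). Of the 2947 introns matched to a gene in GENCODE M21, 164 belonged to genes with an annotated snoRNA inside (5.56%), and 38 of these 164 were fully above (23.2%), against 193 of the 2783 others (6.93%), a split made after seeing the data and not tested. The median log2 change was 0.61 for introns of host genes and 0.35 for the others. With libraries scaled to the total of all classes, 24 introns were fully above (0.806%) and 15 fully below (0.504%), so the count of separated introns changed with the scaling. Snhg6 introns held 0 to 6 reads in a library where Snord87, inside them, held 1311 to 3036, so its reads were not counted again in the host intron. For Snx5 the table does not settle this, with 2220 to 6233 reads in its introns and 266 to 2503 on Snord17 inside them. Which part of the host introns the remaining reads came from cannot be read from the table.

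**Figure D4:**
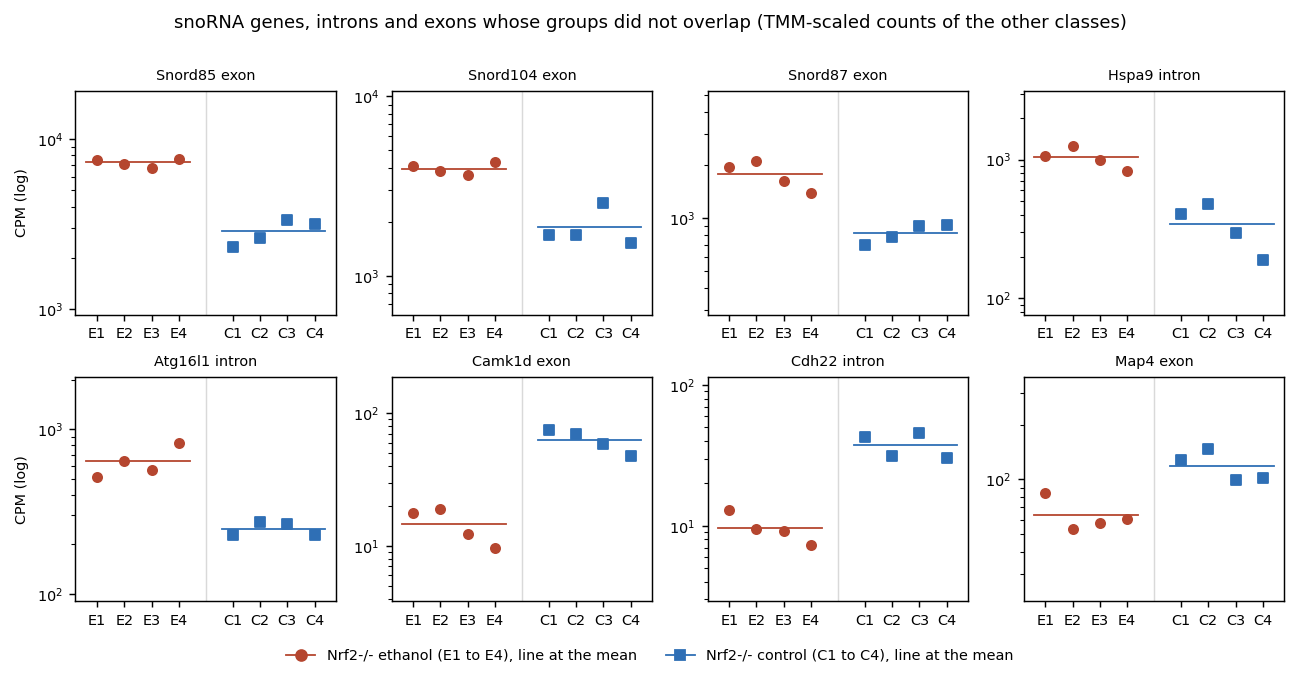
Levels of 8 features in each library, in CPM of TMM-scaled counts outside the miRNA class on log axes, with a line at each group mean. The ethanol libraries lie above all controls for the 3 snoRNA genes and the introns of Hspa9 and Atg16l1 (Snord85: 6779 to 7666 against 2314 to 3316 CPM), and below all controls for Camk1d, Cdh22 and Map4.

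Exons were more often fully below than fully above the controls. Of 5502 exon features, 191 had all ethanol libraries below all controls (3.47%) and 46 had all above (0.836%), snoRNA genes included. Scaled to the total of all classes the counts were 418 (7.95%) and 14 (0.266%), so more exons were fully below than fully above under both scalings. Without controls 1 and 2 this turned, with 1817 fully above (30.9%) and 1279 fully below (21.8%) and a median log2 change of the class of 0.34, against -0.48 with all controls. Without controls 3 and 4, 903 were above (11.2%) and 4021 below (49.9%). Fewer controls make full separation easier, so these shares cannot be set against those with all controls as like values. Exons of Wtap, a subunit of the complex that methylates adenosine in mRNA, were at 79.8, 99.03, 42.3 and 38.4 CPM in ethanol libraries, against 246, 207, 118 and 169 CPM in controls (log2 change -1.52 ± 0.48, SE; edgeR adjusted p = 0.774). Exons of Map4, a protein that stabilises microtubules, were at 83.9, 53.4, 57.7 and 60.8 CPM in ethanol libraries, against 128, 147, 99.02 and 102 CPM in controls. Each was lower in 4 of 4 ethanol libraries than in any control, also with the total of all classes as scale.

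Others among the exons without overlap were Mgll, a lipase of monoacylglycerols, with 96.4 to 137 CPM in ethanol libraries against 145 to 269.8 CPM in controls, and Rpl41 of the large ribosomal subunit, with 36.9 to 64.3 CPM against 79.1 to 199 CPM. Cldn3, a claudin of epithelial tight junctions, had 14.2 to 22.4 CPM in ethanol libraries against 26.1 to 67.4 CPM in controls. Taf4, a subunit of the general transcription factor TFIID, had 5.41 to 9.47 CPM against 16.8 to 25.3 CPM in controls. Mgll and Cldn3 overlapped when scaled to the total of all classes. For Cldn3 and Rpl41 controls 1 and 2 were higher than controls 3 and 4, while Mfap3l was highest in control 4 (36.5 to 40.7 CPM with ethanol against 63.0, 70.9, 77.7 and 130.1 CPM in controls).

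**Figure D5:**
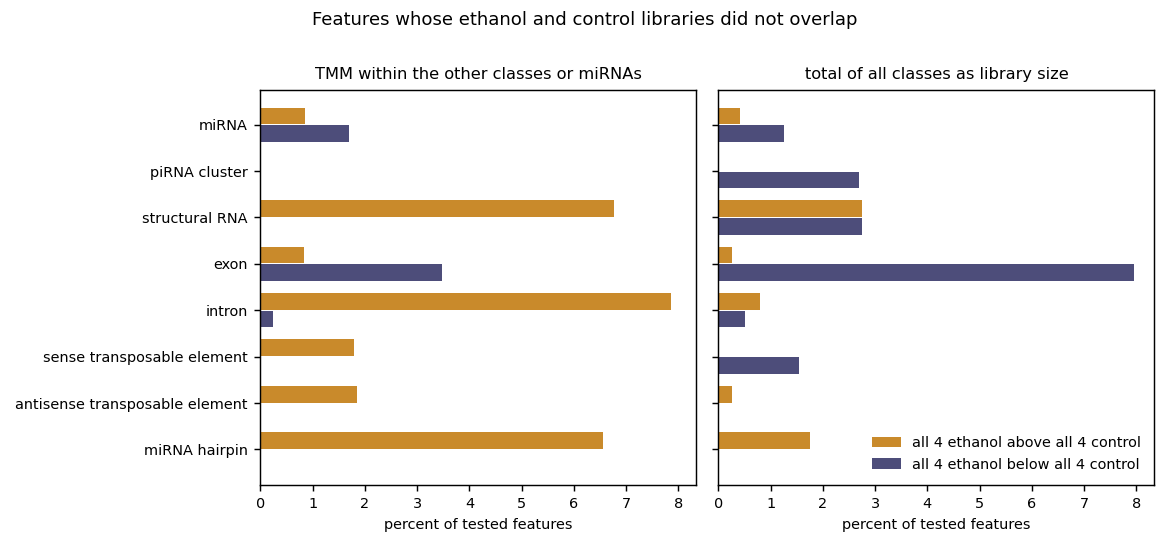
Percent of tested features in each class whose 4 ethanol libraries lie above all 4 controls or below all 4 controls, under TMM scaling (left) and scaled to the total of all classes (right). Under TMM scaling introns separate upwards (7.86% against 0.232% downwards) and exons downwards (3.47% against 0.836% upwards), and under the total of all classes the upward share of introns is 0.806% and the downward share of exons 7.95%.

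The comparison was fitted again with the summed epididymal exons of each library as a further term, which takes up the difference between the control pairs along with any difference between ethanol and control that runs with it. With this term 138 of 9613 features passed an adjusted p of 0.05 (1.44%), 103 higher (1.07%) and 35 lower (0.364%), and 0 of 237 miRNAs did (0%), with 34 at an unadjusted p under 0.05. By class, 37 exon features, 53 introns, 5 structural RNAs, 4 hairpins and 4 sense transposable elements were higher, and 28 exon features and 7 introns lower. Of the 37 exon features that rose with this term, 23 were snoRNA genes, where 92 of the 5502 exon features tested were on the snoRNA list. Of the 51 such introns matched to the annotation, 17 belonged to genes with a snoRNA inside (33.3%), against 5.56% of all matched introns. Both splits were made after seeing the data and were not tested.

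In that fit Snord85 rose (log2 change 1.36, edgeR adjusted p = 0.00702), as did Snord64 (1.69, adjusted p = 0.0149), Snord87 (1.11, adjusted p = 0.0186) and Snord104 (1.09, adjusted p = 0.0234). Hspa9 introns rose (1.67, adjusted p = 0.00173), and so did introns of Atg16l1 (1.36, adjusted p = 0.01) and Ubap2 (1.60, adjusted p = 0.01). Camk1d exons fell by 2.11 on the log2 scale (edgeR adjusted p = 0.00123) and Cdh22 introns by 1.95 (adjusted p = 0.00173). Wtap exons (-1.48) and Cldn3 exons (-1.27) fell with an adjusted p of 0.0186 each. Fold changes of the separated features were near those without the term, while their adjusted p was 0.774 there.

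Which controls were used set the calls. Without controls 1 and 2, 22 of 253 miRNAs were called (8.70%), 18 higher (7.11%) and 4 lower (1.58%). So were 2389 of 10863 other features (22.0%), 1216 higher (11.2%) and 1173 lower (10.8%). The higher miRNAs included miR-200b-3p (log2 change 4.76), miR-31-5p (4.58), miR-34a-5p (3.81), miR-205-5p (3.43), let-7c-5p (2.06) and let-7f-5p (1.97), and the 4 lower were miR-743a-3p (-2.87), miR-34c-3p (-2.65), miR-425-5p (-1.92) and miR-15b-5p (-1.42). Without controls 3 and 4 these miRNAs had log2 changes of -0.38, 0.01, -0.73, -1.47, 0.56, 0.34, 1.00, -0.01, 0.09 and 0.52 in the same order, and 0 of 280 miRNAs were called (0%), with 8 at an unadjusted p under 0.05. That second omission was chosen after seeing the data. It gave 5393 of 13344 other features (40.4%), 2629 higher (19.7%) and 2764 lower (20.7%).

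The gene lists of stress and metabolism followed the control pairs. Of 39 Nrf2 target genes 22 were tested, and 19 were lower and 3 higher with ethanol, with a median log2 change of -0.80 and 0 called. Their exons summed to 139, 106, 81.8 and 219 CPM in ethanol libraries, against 574, 549, 98.8 and 88.3 CPM in controls. Controls 1 and 2 were above all other libraries, and ethanol libraries covered the range of controls 3 and 4 and above. Gstm1, a glutathione transferase, was at 23.7, 21.5, 12.3 and 19.2 CPM in ethanol libraries, against 94.7, 88.8, 1.38 and 6.73 CPM in controls. Ftl1, the light chain of the iron store ferritin, was at 47.4, 34.4, 23.8 and 50.3 CPM in ethanol libraries, against 80.6, 103, 21.3 and 18.5 CPM in controls. The median of the list was 1.153 without controls 1 and 2 and -1.34 without controls 3 and 4. The summed epididymal exons given above moved in the same way. In the fit with them as a further term, the median of the list was -0.17, with 0 called. Whether they were the cause was not tested.

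Of 15 genes of alcohol and aldehyde metabolism 7 were tested, with 6 lower, 1 higher, 0 called and a median log2 change of -0.58. Aldh2, the mitochondrial enzyme that clears acetaldehyde, was at 20.3, 21.5, 9.23 and 22.4 CPM in ethanol libraries, against 32.9, 36.5, 6.88 and 6.73 CPM in controls. Acss2, which turns acetate into acetyl-CoA, went the other way between the control pairs, at 12.2, 16.4, 19.2 and 13.3 CPM in ethanol libraries, against 8.02, 10.7, 36.4 and 55.5 CPM in controls. The groups overlapped for both. All 74 tested genes of cytosolic ribosomal proteins had a negative log2 change, with a median of -0.72 and 0 called. Their summed exons were 589.6, 590.4, 441 and 846 CPM in ethanol libraries, against 2592, 2429, 405 and 386 CPM in controls. The median of this list was 0.99 without controls 1 and 2, and that of the epididymal list, -0.74 with all controls, was 1.65.

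For the sperm and spermatid list, all 26 tested members had a negative log2 change with all controls, with a median of -0.69, and the median was -1.47 without controls 1 and 2 and 1.27 without controls 3 and 4. Prm2, a protamine that packs sperm DNA, was at 63.6, 155.9, 96.9 and 69.1 CPM in ethanol libraries, against 57.8, 63.4, 221 and 436 CPM in controls. Among other cell types, 12 of 13 tested smooth muscle and fibroblast genes were higher with ethanol, with a median of 0.62 and 0 called. Myh11, the myosin heavy chain of smooth muscle, was at 57.5, 81.8, 103.8 and 118 CPM in ethanol libraries, against 67.0, 44.8, 14.4 and 33.1 CPM in controls, so its range overlapped. The summed level of that list was 93.7, 106, 120.4 and 238 CPM in ethanol libraries, against 139.7, 92.8, 85.2 and 88.6 CPM in controls.

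All 3 tested leukocyte exons and all 6 tested leukocyte miRNAs had positive log2 changes, with medians of 0.95 and 1.07 and 0 called. The miRNAs include both miR-155-5p and its precursor row. miR-142a-5p was listed at 0 in ethanol libraries 2 and 4 and controls 1 and 2, where 1542, 1456, 1517 and 2092 reads were expected. The median of these miRNAs thus rests in part on such zeros. Mpeg1, a pore-forming protein of macrophages, was at 7.44, 9.47, 10.8 and 6.86 CPM in ethanol libraries, against 5.62, 5.02, 2.06 and 4.49 CPM in controls, and did not overlap by TMM, though it did when scaled to the total of all classes. miR-150-5p of lymphocytes was at 689.7, 145, 429 and 211 CPM in ethanol libraries, against 51.8, 188, 168 and 20.2 CPM in controls. The 4 tested globin exons had a median of 0.43 and the 5 tested red blood cell miRNAs one of -0.40, with overlapping values. Of the Sertoli and Leydig cell genes, 0 of 14 had enough reads to be tested.

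Among piRNA clusters and transposable elements the groups overlapped for most features. Of 187 piRNA clusters tested 0 were called, 0 were fully above and 0 fully below (0% each), with a median log2 change of -0.37. This rested on controls of both pairs. Without controls 1 and 2, 159 of 192 clusters were fully below (82.8%), with a median of -0.996. Without controls 3 and 4, 149 of 194 were fully above (76.8%), with a median of 1.17 and 86 called higher. Fewer controls make full separation easier, so these shares are not like those with all controls. 9-qC-31469.1, one of the 3 most abundant clusters, was at 21391, 19147, 32419 and 10956 CPM in ethanol libraries, against 11389, 10631, 34800 and 48817 CPM in controls. Young L1Md elements, the LINE-1 families that still move in mice, had a median log2 change of -0.42 in sense and 0.23 in antisense, and IAP elements, endogenous retroviruses, of -0.07 and -0.22, with 5 tested L1Md families in each orientation and 9 and 10 IAP families. RLTR4_MM-int, an endogenous retrovirus related to murine leukaemia virus, followed the epididymal exons in controls, with 2501, 1929.8, 1402 and 1312 CPM in ethanol libraries, against 7673, 9732, 600.3 and 194.65 CPM in controls.

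Transposable elements in sense had 7 of 392 families fully above (1.79%) and 0 below (0%), and those in antisense 7 of 381 (1.84%) and 0 (0%). Scaled to the total of all classes the sense families had 0 above and 6 below, and the antisense families 1 and 0. Without controls 1 and 2, 167 of 422 sense families were fully below (39.6%). Without controls 3 and 4, 248 of 423 were fully above (58.6%), and here too fewer controls make full separation easier. Transfer RNAs, whose fragments are the main structural RNA of sperm, were divided, with 23 of 56 tested isoacceptors higher and 33 lower and a median log2 change of -0.04. tRNA-Glu-GAG_ was at 6848, 12636, 10811 and 28124 CPM in ethanol libraries, against 6520, 6895, 12896 and 18032 CPM in controls. tRNA-Val-GTG was at 14802, 31112, 28112 and 24908 CPM in ethanol libraries, against 21961, 20486, 20692 and 23412 CPM in controls, and its lowest and its highest value were both in ethanol libraries. tRNA-Val-GTY ran alike, at 13011, 29238, 25631 and 22087 CPM in ethanol libraries, against 20912, 19105, 18022 and 20962 CPM in controls. Whether isoacceptor rows share reads was not tested. miRNA hairpins had 4 of 61 fully above (6.56%) and 0 below (0%), among them let-7f-1 and let-7f-2, precursors of let-7f-5p. Scaled to the total of all classes, 1 of 57 was fully above (1.75%), the mir-342 hairpin. Rows of let-7f-1 and let-7f-2 in the miRNA class overlapped between the groups. The mir-342 hairpin was at 27.1, 18.9, 21.5 and 14.6 CPM in ethanol libraries, against 8.42, 6.81, 7.56 and 7.85 CPM in controls (log2 change 1.41 ± 0.38, SE; edgeR adjusted p = 0.774).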

How the data were processed

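The deposited file holds whole-number counts of reads per annotated feature, which the authors made; the aligner, counting tool, genome build and handling of reads with several positions are not given in the sources used here. Of its columns, 0 were left unused. Raw counts of 8 libraries were used, and the wild type and liver knockout tables were not analysed here. Structural RNAs were taken as the highest copy per name, exon and intron rows with identical counts above a total of 20 within a gene were kept once and summed per gene, and transposable elements were summed per subfamily. In R 4.3.3, edgeR 4.0.16 (filterByExpr, TMM, quasi-likelihood F test, two-sided, Benjamini-Hochberg at 0.05) was fitted to miRNAs and to all other classes as separate families, with DESeq2 1.42.0 as an alternative. Class shares were compared in Python 3.11.15 with scipy 1.17.1 by exact permutation over libraries, where 0.0286 is the smallest p possible. The fits were tested on simulated counts with a single fixed spread and no split among the controls. That test does not cover controls that fall into pairs as here. A zero counted as a gap where at least 50 reads were expected, at least 3 libraries were above 0 and the lowest other count was at least 10. Intervals cover counting error only. Depth ran from 2875003 to 4782698 counts after collapsing copies. The members, lists and tests were chosen with earlier results of these data known. Lists of miRNAs count precursor rows of the miRNA class beside the mature ones. Named features are Nfe2l2, the 10 most abundant miRNAs, the 10 miRNAs and 10 other features with the lowest p and a mean of at least 10 CPM (since none passed), the 3 most abundant per class and the 4 highest of each list. snoRNA genes, their host introns, features without overlap and those called under an alternative were added after seeing the data. The closing section gives the effect of other scalings, filters, left-out libraries, summed copies and a replicate block. A few items are not reported here.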

Additional observations from a re-analysis of the deposited data

Results flagged for a closer look

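Of 98 groups of 4 libraries looked at, 7 held a library farther from the others than Dixon's criterion at 95% allows, and chance flags about 1 in 20. Of these, 6 were ethanol library 4. Its exon share was 10.25%, against 6.55% to 6.74% in the other ethanol libraries, and its intron share was 8.93%, against 5.50% to 5.90%. miR-143-3p, a miRNA of smooth muscle and stroma, was at 88160 CPM in it, against 7320 to 20830 CPM in the others. miR-122-5p was at 23620 CPM in it, against 1112 to 3491 CPM. Leukocyte exons summed to 55.7 CPM in it, against 30.8 to 33.5, and Sertoli and Leydig cell exons to 7.41 CPM, against 3.68 to 3.96. Among controls, smooth muscle and fibroblast exons summed to 139.7 CPM in control 1, against 85.2 to 92.8 in the other 3.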

How the results depend on the processing

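The call counts in the other classes depended on the control libraries. Against 0 calls with all 8 libraries, other features gave 138 calls with the epididymal exons as a term, 2389 without controls 1 and 2, 5393 without controls 3 and 4 (chosen after seeing the data), 2 in DESeq2 and 1 without the filter on low counts. miRNAs gave 22 calls without controls 1 and 2 and 1 without the filter. Both stayed at 0 with each single library left out (0 to 9 miRNAs and 275 to 956 other features at an unadjusted p under 0.05), with DESeq2 size factors, with the total of all classes as scale and at an adjusted p of 0.1. Other features also stayed at 0 with all copies summed, and miRNAs with gap miRNAs left out.

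The replicate block gave 0 calls in both families (2 miRNAs and 178 other features at an unadjusted p under 0.05). The deviations of same-numbered libraries correlated at 0.327, 0.259, 0.237 and 0.227 over miRNAs but at 0.024, -0.085, 0.485 and -0.514 over other features, and 3 of 4 ethanol libraries matched best with their own number over miRNAs. The labels give no ground for pairing and the check was met for miRNAs only, so the fits without the block were kept as the main ones. In the block, exact sign flips gave p = 0.125 for the miRNA share and sense transposable elements, the smallest possible.

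Ethanol minus control shares changed sign, with no call made in either case, without controls 3 and 4 for piRNA clusters (2.80 points), introns (0.628), antisense transposable elements (0.314), structural RNA (0.225) and hairpins (0.0245). With miRNAs left out of the total they were 3.87 for introns, 2.02 for structural RNA, 0.146 for antisense transposable elements and 0.114 for hairpins. With all copies summed they were 0.0828 for introns and 0.00436 for hairpins. With single libraries left out, introns ran from -0.831 to 0.521 and hairpins from -0.0131 to 0.0107.

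Counts of features without overlap were 1 miRNA above, 14 exons above and 418 below, and 24 introns above and 15 below with the total of all classes as scale. Without the filter they were 134 exons above and 481 below, and 399 introns above and 65 below. Without controls 1 and 2 they were 72 miRNAs above and 63 below, 1817 exons above and 1279 below, and 694 introns above and 832 below. Without controls 3 and 4 they were 24 and 37 miRNAs, 903 and 4021 exons, and 1959 and 40 introns. Omitting a control pair makes full separation easier, so these counts are not like those with all controls. With single libraries left out, which leaves fewer libraries to overlap, they ran from 2 to 7 and from 4 to 13 for miRNAs, from 65 to 117 and from 232 to 501 for exons, and from 288 to 522 and from 8 to 14 for introns.

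Median log2 changes of lists without controls 1 and 2 were -2.001 for the miR-34 family, 1.44 for miR-10 and relatives, 3.53 for the miR-200 family, -1.34 for X-linked miRNAs, 2.58 for leukocyte miRNAs, 1.58 for leukocyte exons, 1.65 for epididymis, 1.153 for Nrf2 targets, 1.45 for alcohol metabolism and 0.99 for ribosomal proteins. Without controls 3 and 4 they were -0.59 for the miR-34 family, 0.18 for X-linked miRNAs, 1.82 and 2.29 for red blood cell miRNAs and exons, 1.27 for spermatids, 1.04 for smooth muscle, 2.20 for hepatocytes, 1.01 for transfer RNA, 0.93 and 1.25 for sense and antisense L1Md, 0.88 and 1.03 for sense and antisense IAP, and 1.149 for snoRNA genes. With the total of all classes as scale they were -1.26 for the miR-34 family, 0.33 for smooth muscle and 0.42 for snoRNA genes. With single libraries left out, the miR-34 family ran from -1.70 to -1.26 and snoRNA genes from 0.59 to 1.11. Without controls 3 and 4, miR-743a-3p had a log2 change of 1.00 and miR-425-5p of 0.0938. The cause of these shifts was not tested.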
